A study of Mus musculus with 4 samples.

Results

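A set of 10 Wnt pathway genes was followed in G3 Terc-/- and WT mouse ESCs. They are the ligands Wnt7b, Wnt3 and Wnt4, the Wnt acyltransferase Porcn, the transcription factors Lef1 and Tcf7, and the target genes Axin2, Sp5, Cdx1 and T. They make up 10 of the 24116 genes in the count table, and all 10 were among the 14896 genes that passed the filter on low counts. The members were chosen by their role and by earlier results of these same libraries, where Wnt7b and Porcn had been selected on their fold change between the genotypes. The members' differences between G3 Terc-/- and WT ESCs are therefore given as a description, without a test. Pathway genes outside the list of 10 were tested across all genes.

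Poly(A) RNA was sequenced from C57BL/6 ESCs kept on feeder cells in medium with serum and LIF. WT ESCs of line N12 and G3 Terc-/- ESCs of line F35 were each represented by 2 libraries. Terc encodes the RNA template of telomerase, and the G3 Terc-/- line was derived from blastocysts of intercrossed G2 Terc-/- mice, so that the cells follow several generations without telomerase. The titles of the WT libraries carry the generation mark G3 as well. With 1 line for each genotype, the effect of the genotype and a difference between lines cannot be told apart, and p-values measure the spread between libraries of the same line only.

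Gene counts summed to between 18047995 and 22520017 per library. Terc was counted 7 and 2 times in WT and 0 times in either G3 Terc-/- library, a result that 3 counts would still allow, and since the Terc transcript is not polyadenylated these counts are a weak check of the labels. Levels are given as CPM, the counts of a gene per 1000000 counts of its library after TMM scaling, and levels of different genes are compared only as CPM per kb of exon. The median log2 fold change of all tested genes was 0.00625, so that changes are read against a centre close to 0. A gene was called at the cutoff of the study when its fold change was over 2 and its unadjusted p-value, from edgeR's quasi-likelihood test, under 0.05, and Benjamini-Hochberg adjusted p-values over all 14896 genes are given beside it. In an exact permutation test of a single value, 2 libraries against 2 cannot give a two-sided p below 0.333.

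Wnt proteins are secreted signals that must be acylated by Porcn in the endoplasmic reticulum before Wls carries them to the cell surface. At the receiving cell they bind Frizzled receptors with Lrp5 or Lrp6, the destruction complex built on Axin and Apc is inhibited, and β-catenin accumulates and enters the nucleus to act with TCF/LEF factors on target genes. In mouse ESCs this pathway is known for sustaining self-renewal, largely by relieving the repression that Tcf7l1 exerts on pluripotency genes, and for inducing primitive streak genes when the cells leave pluripotency.

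Wnt7b RNA was 11.6-fold lower in the mutant G3 Terc-/- ESCs than in WT, whereas Porcn RNA was 3.25-fold higher. Wnt7b (gene identifier 22422, chromosome 15 of GRCm38 from 85535437 to 85581821), a ligand that signals through β-catenin in many epithelia, was counted 429 and 496 times in WT libraries and 40 and 33 times in G3 Terc-/- libraries. The corresponding levels were 19.6 and 22.4 CPM in WT against 1.8 and 1.81 CPM in G3 Terc-/- ESCs, or 21.0 ± 1.93 CPM against 1.81 ± 0.00348 CPM (mean ± SD, n = 2 each). The groups were far apart, with a log2 fold change of -3.54 (SE 0.16), and only 6 of the 14896 tested genes had a lower one. Leaving out any of the 4 libraries kept the log2 fold change of Wnt7b between -3.63 and -3.44.

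Porcn (gene identifier 53627, chromosome X from 8193846 to 8206548) had 984 and 986 counts in WT against 3228 and 2652 counts in G3 Terc-/- libraries. Scaled for library size, these were 45.1 and 44.5 CPM against 145.6 and 145.4 CPM, so that the replicates of each genotype lay almost on top of each other. The log2 fold change of Porcn was 1.70 (SE 0.06) and stayed between 1.69 and 1.71 without any 1 library. It ranked 230 from the highest of all tested genes, at percentile 98.5.

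The other ligands of the list were low in both genotypes. Wnt3 (gene identifier 22415, chromosome 11 from 103774175 to 103818021), which patterns the primitive streak in the embryo, had 37 and 53 counts in WT against 61 and 45 counts in G3 Terc-/- libraries, or 1.69 and 2.39 CPM against 2.75 and 2.47 CPM. The ranges in CPM did not overlap, but the highest WT and the lowest G3 Terc-/- library lay close together, and the log2 fold change of 0.36 had an SE of 0.26. Wnt4 (gene identifier 22417, chromosome 4 from 137277635 to 137299501), known from kidney and gonad development, had 33 and 40 against 33 and 21 counts, or 1.51 and 1.8 CPM against 1.49 and 1.15 CPM. Its log2 fold change of -0.32 was about as large as its SE of 0.31. Neither difference was clearly larger than its standard error.

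Among the transcription factors, Lef1 was moderately lower in G3 Terc-/- ESCs and Tcf7 slightly so. Lef1 (gene identifier 16842, chromosome 3 from 131110297 to 131224357), which binds β-catenin and is itself induced by Wnt signalling in many tissues, had 326 and 397 counts in WT against 234 and 210 counts in G3 Terc-/- libraries, or 14.9 and 17.9 CPM against 10.6 and 11.5 CPM. Both G3 Terc-/- libraries were below both WT libraries, with a log2 fold change of -0.58 (SE 0.12). Tcf7 (gene identifier 21414, chromosome 11 from 52246527 to 52283383), the TCF/LEF factor that mainly activates targets in ESCs, had 89.5 and 91.4 CPM against 81.4 and 78.6 CPM, a log2 fold change of -0.18 (SE 0.06). Tcf7 shares 332 bp with Skp1, an abundant gene that fell from 9321 and 9900 counts to 7960 and 6946 counts (log2 -0.24, adjusted p = 9.53e-05 by edgeR), and the strand setting of the counting is not given in the sources used here.

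Cdx1 and T were the target genes with higher levels in G3 Terc-/- ESCs. Cdx1 (gene identifier 12590, chromosome 18 from 61018862 to 61036199), a caudal homeobox factor of the posterior embryo, had 203 and 200 counts in WT against 468 and 343 counts in G3 Terc-/- libraries, or 9.3 and 9.02 CPM against 21.1 and 18.8 CPM. It was 2.18-fold higher, with a log2 fold change of 1.13 (SE 0.11) that lay between 1.03 and 1.21 without any 1 library. T (gene identifier 20997, chromosome 17 from 8434423 to 8442496), the Brachyury factor of the primitive streak and notochord, had 95 and 84 against 159 and 130 counts, or 4.35 and 3.79 CPM against 7.17 and 7.13 CPM. T was 1.76-fold higher, with a log2 fold change of 0.81 (SE 0.17), short of a fold change of 2.

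Axin2, the feedback inhibitor that is the most widely used readout of β-catenin signalling, was nearly level between the genotypes. It (gene identifier 12006, chromosome 11 from 108917828 to 108950783) had 367 and 376 counts in WT against 389 and 320 counts in G3 Terc-/- libraries, which gave 16.8 and 17.0 CPM against 17.5 and 17.5 CPM. Its log2 fold change was 0.055 (SE 0.10), a 1.04-fold difference. Sp5 (gene identifier 64406, chromosome 2 from 70474923 to 70477726), a zinc finger repressor that Wnt signalling induces directly, had 110 and 102 against 87 and 70 counts, or 5.04 and 4.6 CPM against 3.92 and 3.84 CPM. Its log2 fold change of -0.31 had an SE of 0.19. The difference in Sp5 rested on 110 reads a library at most, and that in Axin2 was smaller than its standard error.

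Promoter sequences from RefSeq (build GRCm38.p6, 250 bases before to 50 after a transcript start) were found for 7 of the 10 members, and not for Wnt7b, Porcn and Cdx1. The windows were searched on both strands for 4 spellings of the TCF/LEF core, namely AACAAAG and ATCAAAG and also TACAAAG and TTCAAAG, settled, like the promoters shown, after matches had been seen. The 250 bases before the start are shown 5′ to 3′ on the plus strand for the 3 target genes with a window, which show the range from no match to more than 1, with each match in capitals. Sp5 lies at chr2:70474673-70474922, T at chr17:8434173-8434422 and Axin2 at chr11:108920099-108920348.
Sp5: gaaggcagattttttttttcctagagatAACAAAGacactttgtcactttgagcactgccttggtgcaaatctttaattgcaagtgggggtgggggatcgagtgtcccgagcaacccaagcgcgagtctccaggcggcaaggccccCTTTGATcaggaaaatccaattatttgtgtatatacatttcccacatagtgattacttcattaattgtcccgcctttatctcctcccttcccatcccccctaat
T: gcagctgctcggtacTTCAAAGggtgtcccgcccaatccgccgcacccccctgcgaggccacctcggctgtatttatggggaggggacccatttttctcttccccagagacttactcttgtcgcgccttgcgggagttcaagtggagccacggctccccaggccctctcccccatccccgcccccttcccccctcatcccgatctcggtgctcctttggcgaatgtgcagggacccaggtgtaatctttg
Axin2: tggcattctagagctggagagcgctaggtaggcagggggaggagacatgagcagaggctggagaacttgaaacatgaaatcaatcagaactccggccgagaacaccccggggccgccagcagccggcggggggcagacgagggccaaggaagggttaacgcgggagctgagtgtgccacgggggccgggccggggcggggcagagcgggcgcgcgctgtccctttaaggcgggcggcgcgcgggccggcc
Sp5 held 2 matches, AACAAAG with its first base at position -222 and ATCAAAG on the opposite strand, read here as CTTTGAT, at -104, counting from the transcript start. T held 1 match, TTCAAAG at -235. Axin2 held none, and of the other members Lef1 had a match, TACAAAG at -147, in 1 of its 4 windows, and Wnt3 had a match after its start, 18 bases in. Among all 32851 promoter windows, 4874 (14.8%) held at least 1 match in the 250 bases before the start and 469 (1.43%) held 2 or more, so that a single match is common. A match is a description of the letters and does not show that a factor binds there, and its absence from a window says nothing of other elements.

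By fold change alone, Porcn and Cdx1 were past the cutoff of the study on the higher side and Wnt7b on the lower side. The other 7 members were short of that fold change in either direction. No p-value is used for the members. Both G3 Terc-/- libraries were above both WT libraries in CPM for 5 members and below them for the other 5, where 35.5% and 34.9% of all genes had such a separation. Because the members were chosen with these differences known, nothing is read from the counts. The plot of each member by library shows the spread on which they rest.

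**Figure D1:**
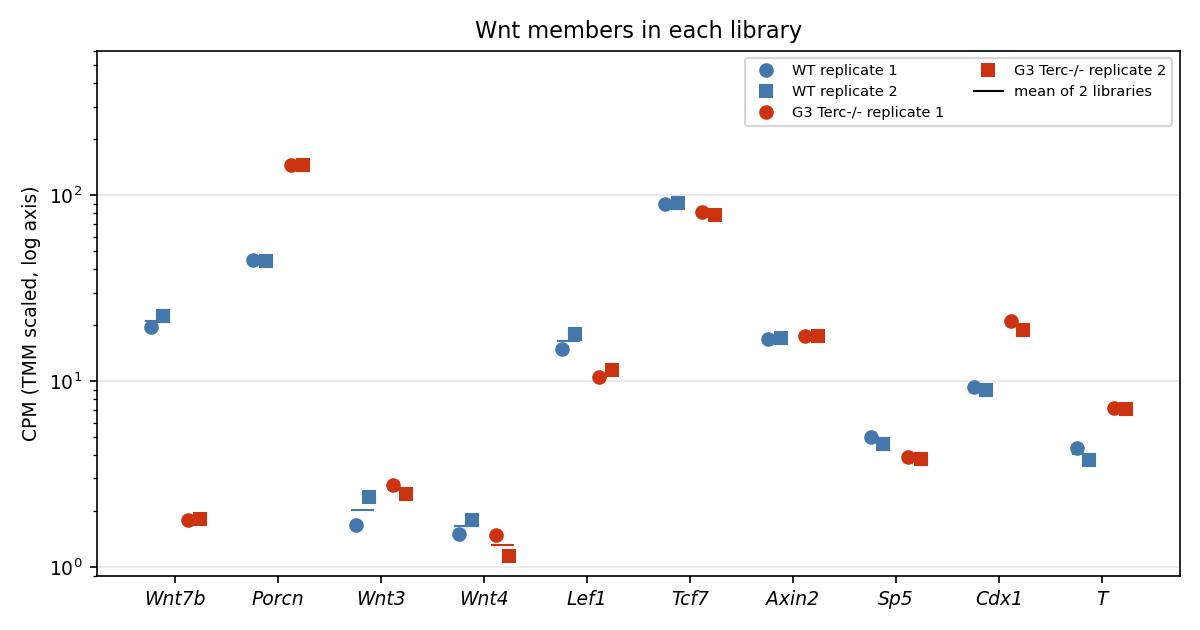
Level of each of the 10 members in CPM on a log axis, with WT libraries in blue, G3 Terc-/- libraries in red, circles for replicate 1, squares for replicate 2 and a short line at the mean of 2 libraries. Wnt7b drops from about 21.0 to 1.81 CPM and Porcn goes from 44.8 to 145.5 CPM, while Axin2 stays at 16.9 and 17.5 CPM.

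Per kb of exon, Tcf7 was the most abundant member in WT ESCs with 34.5 CPM per kb, followed by Porcn with 14.9, Cdx1 with 5.23 and Wnt7b with 4.29 CPM per kb. Axin2 (3.07 CPM per kb) and Sp5 (2.29 CPM per kb) came next. Lef1 (1.87 CPM per kb) and T (1.76 CPM per kb) overlapped between WT libraries, and Wnt3 and Wnt4 were lowest with 0.664 and 0.395 CPM per kb. In G3 Terc-/- ESCs Porcn had moved above Tcf7, with 48.5 against 30.5 CPM per kb, and Wnt7b had moved down to 0.369 CPM per kb, between Wnt3 (0.848) and Wnt4 (0.315). No neighbours in the G3 Terc-/- order overlapped between libraries.

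Per kb of exon, the sum of Wnt ligand RNA was similar in both genotypes, but its make-up differed. The 19 Wnt ligands added up to 10.9 and 11.4 CPM per kb in the WT libraries and to 11.0 and 10.8 CPM per kb in the G3 Terc-/- libraries. Wnt7b made up 36.9% and 40.2% of this sum in WT against 3.36% and 3.42% in G3 Terc-/- libraries, going from rank 1 to rank 7. Without Wnt7b, the sum was 6.86 and 6.8 CPM per kb in WT against 10.6 and 10.4 CPM per kb in G3 Terc-/- libraries. The similarity of the full sums depends on the scaling to exon length. As plain CPM, the 19 ligands summed to 40.2 and 42.7 in WT against 31.7 and 30.8 in G3 Terc-/- libraries, which was lower. This summary was chosen after the values were seen, and 6 of the 19 ligands had at most 10 counts in every library.

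The ligands whose share of the sum per kb grew were chiefly Wnt8a and Wnt5b. Wnt8a, a β-catenin ligand of the early posterior embryo, went from 20.5% and 19.1% of the ligand sum in WT to 33.0% and 36.6% in G3 Terc-/- libraries and became the most abundant ligand. Its level rose from 3.89 and 3.79 CPM to 6.31 and 6.91 CPM, with a log2 fold change of 0.78 (SE 0.18, adjusted p = 0.000332 by edgeR with Benjamini-Hochberg adjustment). Wnt5b, a ligand known mainly for signalling without β-catenin, rose from 43 and 36 counts to 136 and 101 counts, a 3.25-fold change (log2 1.70, SE 0.21, adjusted p = 1.18e-08 by edgeR). Wnt5b lies on chromosome 6 from 119432531 to 119544824, where 5 of 7 tested genes within 500 kb rose by adjusted p-value and none fell, with a median log2 fold change of 0.562, and the part of gene copy number was not tested. Wnt6 rose from a low level, 0.824 and 0.812 CPM in WT against 1.76 and 1.64 CPM in G3 Terc-/- libraries (log2 1.05, SE 0.34, adjusted p = 0.0113 by edgeR), and missed the cutoff with DESeq2 or without G3 Terc-/- replicate 1. Wnt3a, named after its values were seen as the ligand most used to activate the pathway, had a log2 fold change of -0.82 (SE 0.35) and did not pass (adjusted p = 0.0564 by edgeR), with a log2 fold change of -1.18 without G3 Terc-/- replicate 2.

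**Figure D2:**
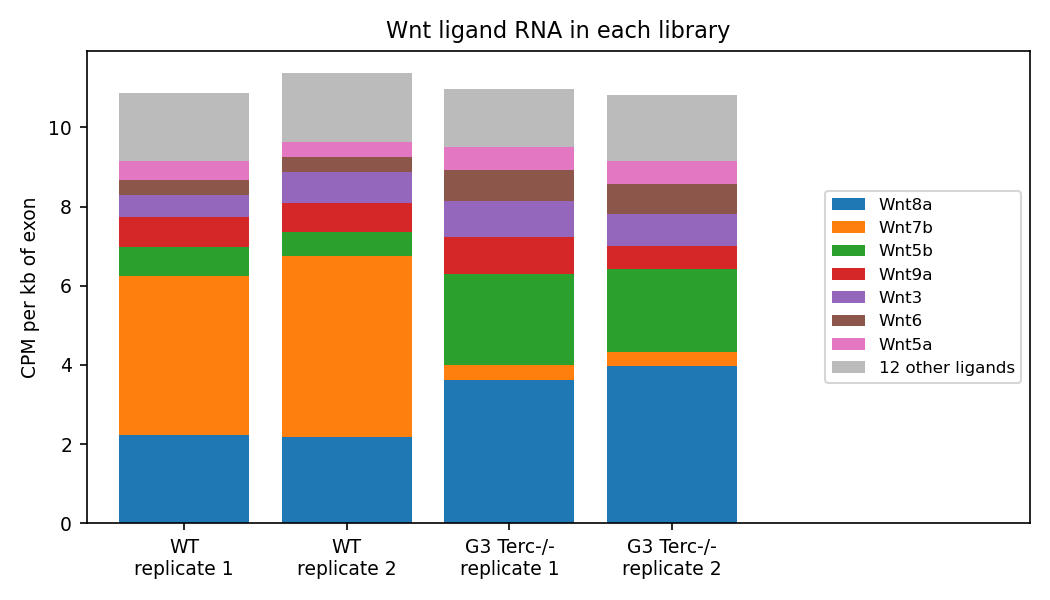
Stacked bars of Wnt ligand RNA in CPM per kb of exon for the 2 WT and 2 G3 Terc-/- libraries, with the 7 most abundant ligands in colour and the rest in grey. The bars reach 10.9, 11.4, 11.0 and 10.8 CPM per kb, with Wnt7b the largest segment in WT and Wnt8a and Wnt5b the largest in G3 Terc-/- libraries.

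Around the members, 138 other pathway genes were listed by role, of which 124 passed the filter. At the cutoff of the study 10 of them (8.06%) were higher and 2 (1.61%) lower, where 4.73% and 3.13% of all genes were called, and with adjusted p-values 32 rose and 32 fell (25.8% each), near the 21.7% and 21.8% of all genes. Their median log2 fold change was -0.0041. The remaining 60 did not pass in either direction. Counts by adjusted p-value in each list below are to be read beside the same shares of all genes, 21.7% and 21.8%. The median and the calls by adjusted p-value thus lay near those of all genes, while calls at the cutoff were mostly higher. Without chromosome 6, the calls at the cutoff were 8 higher and 2 lower of 119. The 2 lower calls became 4 without a filter or without WT replicate 1 or G3 Terc-/- replicate 2, 5 without G3 Terc-/- replicate 1 and 3 without WT replicate 2.

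Of the 9 other ligands that passed the filter, 3 rose (Wnt8a, Wnt5b and Wnt6) and none fell, with a median log2 fold change of 0.43. Among the 10 other genes of Wnt acylation and secretion, 3 rose and 1 fell by adjusted p-value and none passed the cutoff, with a median of 0.073. Wls, the carrier that takes acylated Wnt proteins to the surface, was named after its values were seen and rose from 14.0 and 10.2 CPM to 18.9 and 16.7 CPM (log2 0.56, SE 0.12, adjusted p = 0.000151 by edgeR). Snx3, a sorting nexin that recycles Wls, fell slightly (log2 -0.16, adjusted p = 0.0203 by edgeR), and Tmed2, a cargo receptor of the early secretory pathway, had a log2 fold change of -0.001 (adjusted p = 0.992 by edgeR).

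Of the 18 receptors, 5 (27.8%) were higher and 4 (22.2%) lower by adjusted p-value, beside 21.7% and 21.8% of all genes. Their median log2 fold change was 0.031. Fzd10, a Frizzled receptor of low level here, rose from 8.24 and 6.95 CPM to 16.2 and 15.5 CPM (log2 1.06, SE 0.12, adjusted p = 1.96e-09 by edgeR) and was the 1 receptor past the cutoff, which it missed without WT replicate 2 (log2 0.94). Fzd7, known as a main Wnt receptor of ESCs, fell from 140.9 and 139.5 CPM to 95.6 and 103.6 CPM (log2 -0.49, adjusted p = 1.16e-09 by edgeR), while Fzd5, named after its values were seen, rose from 112.4 and 119.2 CPM to 163.3 and 175.2 CPM (log2 0.55, adjusted p = 5.02e-11 by edgeR). Per kb of exon Fzd7 was above Fzd5 in WT ESCs (30.9 ± 0.227 against 16.7 ± 0.698 CPM per kb, mean ± SD, n = 2), and in G3 Terc-/- ESCs the means were 22.0 ± 1.25 for Fzd7 and 24.5 ± 1.22 CPM per kb for Fzd5. Fzd2, named after its values were seen, fell from 16.4 and 14.6 CPM to 9.83 and 6.74 CPM (log2 -0.89, adjusted p = 4.36e-07 by edgeR, and log2 -1.21 without G3 Terc-/- replicate 1). The co-receptor Ptk7 was at 187.3 and 173.8 CPM in WT against 189.0 and 164.2 CPM in G3 Terc-/- libraries, with overlapping ranges. Of the 8 tested genes of the R-spondin system, which controls how long Frizzled receptors stay at the surface, Lgr4 fell (log2 -0.34, adjusted p = 8.54e-06 by edgeR) and the other 7 did not pass, among them the ubiquitin ligase Znrf3 (log2 0.11, adjusted p = 0.311).

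Secreted inhibitors of the pathway moved in both directions. Of 13 tested, 2 passed the cutoff upward and none downward, where 4.73% and 3.13% of all genes did. By adjusted p-value 4 (30.8%) rose and 3 (23.1%) fell, beside 21.7% and 21.8% of all genes. Their median log2 fold change was 0.19. Sfrp1, which binds Wnt proteins outside the cell, was the most abundant of them and rose from 94.0 and 100.3 CPM to 176.0 and 186.7 CPM (log2 0.90, SE 0.06, adjusted p = 2.24e-17 by edgeR). Draxin, an axon guidance factor that binds Lrp6, rose from 0.87 and 1.49 CPM to 2.75 and 2.63 CPM (log2 1.19, SE 0.29, adjusted p = 0.000942 by edgeR), or log2 0.85 without WT replicate 1. Wif1, another Wnt binder, passed the cutoff by its unadjusted p-value alone (log2 1.23, SE 0.57, adjusted p = 0.0763 by edgeR) at under 1 CPM, and missed it with DESeq2, without a filter and without each of the 4 libraries. Sfrp2 fell (log2 -0.34, adjusted p = 0.0475 by edgeR).

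Of the 23 genes of the Dishevelled, destruction complex and β-catenin group, 3 rose and 9 fell by adjusted p-value, none passed the cutoff, and the median log2 fold change was -0.069. Ctnnb1, which encodes β-catenin, fell from 734.4 and 749.3 CPM to 684.3 and 669.8 CPM (log2 -0.13, adjusted p = 0.0198 by edgeR). Tnks2, a tankyrase that marks Axin for degradation, had a log2 fold change of -0.069 (adjusted p = 0.252 by edgeR). Ccdc88c, a Dishevelled binding protein named after its values were seen, fell the most of this group, from 106.2 and 106.5 CPM to 64.0 and 65.9 CPM (log2 -0.71, adjusted p = 4.05e-13 by edgeR).

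Of the 16 other TCF/LEF factors and nuclear partners, 2 rose and 7 fell by adjusted p-value, with a median log2 fold change of -0.15. Tcf7l1, the TCF factor that mainly represses in ESCs, was named after its values were seen and fell from 83.9 and 85.0 CPM to 45.8 and 41.8 CPM (log2 -0.94, SE 0.07, adjusted p = 2.02e-15 by edgeR), short of the cutoff, which it passed without G3 Terc-/- replicate 1 (log2 -1.02). Tcf7l1 lies on chromosome 6 from 72626371 to 72789045, and its neighbours were lower too: of 17 tested genes within 500 kb, 14 fell and 1 rose by adjusted p-value, with a median log2 fold change of -0.696. Over the 691 tested genes of that chromosome the median was 0.0717, but many genes differed in both directions. At the cutoff 53 were higher and 86 lower, where 4.73% and 3.13% of all genes were called. By adjusted p-value 235 rose and 215 fell, beside 21.7% and 21.8% of all genes. From exome sequencing, the authors described a large deletion on the same chromosome in G3 Terc-/- ESCs and in those of the next generation. The part of gene copy number in the lower Tcf7l1 level was not tested. Ctbp2, a corepressor, fell (log2 -0.42, adjusted p = 1.49e-09 by edgeR), and Tle5, a short Groucho family member, rose (log2 0.28, adjusted p = 0.000102 by edgeR). Tcf7l2, the remaining TCF/LEF gene, had 11.5 and 11.3 CPM in WT against 11.3 and 9.92 CPM in G3 Terc-/- libraries and did not pass (log2 -0.10, adjusted p = 0.536 by edgeR).

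Genes known as targets of Tcf7l1 repression in ESCs were mostly higher. Of the 8 tested, 7 rose and 1 fell by adjusted p-value, with a median log2 fold change of 0.49, against a median of 0.00625 for all genes. Nanog, a core pluripotency factor, rose from 410.5 and 407.7 CPM to 888.9 and 900.3 CPM (log2 1.13, adjusted p = 4.74e-23 by edgeR), and Tcl1, an Akt coactivator, from 30.5 and 27.2 CPM to 65.5 and 62.1 CPM (log2 1.15, adjusted p = 8.09e-17 by edgeR). Nanog lies on chromosome 6 as well, from 122707489 to 122714633, and of 11 tested genes within 500 kb of it 8 rose and 1 fell by adjusted p-value, with a median log2 fold change of 0.574. The part of gene copy number in the Nanog level was not tested either. Tfcp2l1, a naive pluripotency factor named after its values were seen, rose 1.74-fold. Dppa5a was the exception and fell from 1326.7 and 1324.2 CPM to 745.0 and 790.4 CPM (log2 -0.79, adjusted p = 7.78e-18 by edgeR).

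Among 19 tested Wnt target genes other than the members, 3 (15.8%) passed the cutoff upward and 2 (10.5%) downward, where 4.73% and 3.13% of all genes did. By adjusted p-value 5 rose and 6 fell, with a median log2 fold change of 0.042. Tbx3, a T-box factor of naive pluripotency, rose most clearly, from 116.1 and 121.0 CPM to 394.4 and 436.2 CPM (log2 1.81, SE 0.05, adjusted p = 1.13e-27 by edgeR). Sp8, a zinc finger factor related to Sp5, rose from 0.824 and 0.992 CPM to 3.79 and 3.73 CPM (log2 2.04, SE 0.28, adjusted p = 7.00e-08 by edgeR), and the receptor gene Tnfrsf19 rose 2.19-fold (adjusted p = 3.91e-11 by edgeR). Jun, a subunit of AP-1, fell from 80.3 and 73.5 CPM to 31.0 and 30.1 CPM (log2 -1.33, adjusted p = 2.22e-19 by edgeR), and Cdx4, a caudal factor like Cdx1, fell from a level near 1 CPM (log2 -1.82, SE 0.50, adjusted p = 0.00262 by edgeR). Cdx2, named after its values were seen as the third caudal gene, did not pass (log2 -0.84, SE 0.47, adjusted p = 0.15 by edgeR, and log2 -1.99 without G3 Terc-/- replicate 1). Myc, also named after its values were seen, fell (log2 -0.76, adjusted p = 2.98e-11 by edgeR), Ccn2 rose slightly (log2 0.30, adjusted p = 2.46e-06 by edgeR) and Ccnd1 did not pass (log2 0.042, adjusted p = 0.524 by edgeR). The targets thus did not share a direction, and neither did the members Axin2, Sp5, Cdx1 and T among themselves.

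**Figure D3:**
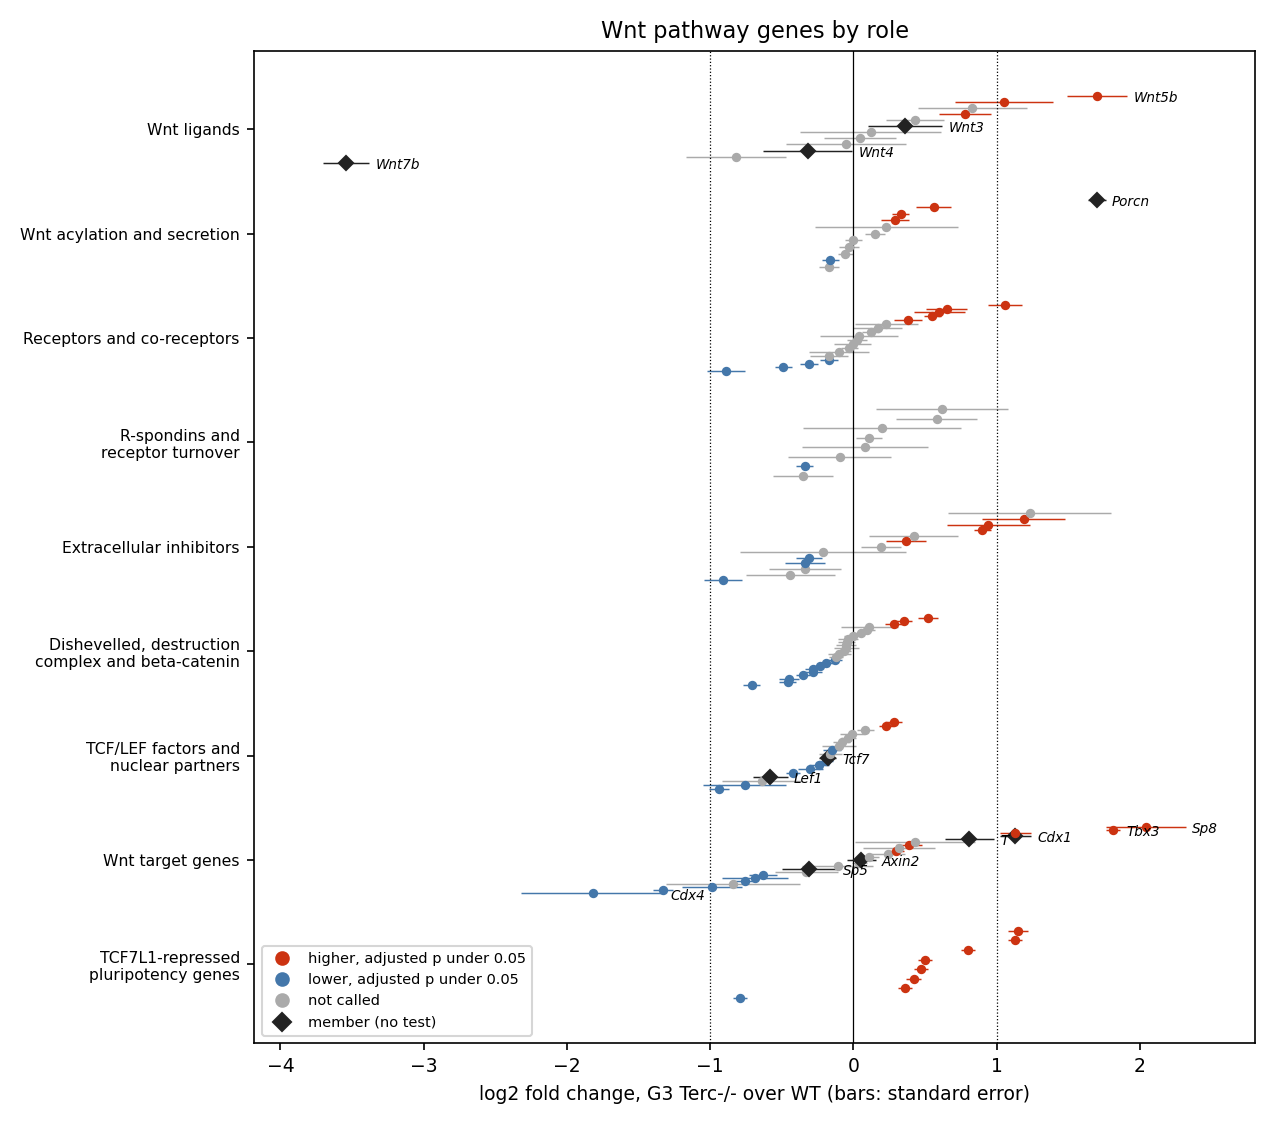
Log2 fold change of G3 Terc-/- over WT ESCs for each tested pathway gene, by role, with bars for the standard error and dotted lines at a fold change of 2. Black diamonds are members, shown without a test, red and blue circles have adjusted p-values under 0.05, and Wnt7b lies alone at -3.54 while most genes lie between the dotted lines.

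Over the 4 libraries, the genes with the pattern nearest to Wnt7b by Euclidean distance of centred log2 CPM were Sh3rf2, Rhox5 and Krt7. Sh3rf2, an E3 ligase gene, had 62 and 73 counts in WT against 4 and 4 counts in G3 Terc-/- libraries, at a distance of 0.146. Rhox5, an X-linked homeobox gene, went from 1900 and 1925 counts to 143 and 106 counts (distance 0.381), and Krt7, a keratin of simple epithelia, from 284 and 271 counts to 27 and 28 counts (distance 0.457). For Porcn the nearest were Calhm5 (29, 29, 97 and 80 counts, distance 0.0386), Slc41a3 (50, 49, 165 and 141 counts, distance 0.0464) and Inka2 (66, 65, 212 and 182 counts, distance 0.0504). With 4 libraries a near pattern mostly means a similar fold change, and it was given no test.

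Genes that lie near Wnt7b and Porcn on their chromosomes were also compared. Within 500 kb of Wnt7b, 11 genes were tested, of which 3 rose and 1 fell by adjusted p-value, where 21.7% and 21.8% of all genes did. Their median log2 fold change was -0.00349, and 1 of them was lower at the cutoff of the study. That gene was AU022754, a lncRNA that overlaps Wnt7b by 680 bp and had 36 and 25 counts in WT against 3 and 2 counts in G3 Terc-/- libraries (log2 -3.43, SE 0.56, adjusted p = 2.27e-06 by edgeR). Without knowledge of the strand setting, reads of Wnt7b and of AU022754 in the shared stretch cannot be told apart. On the other side Atxn10, which had 286.1 and 282.3 CPM in WT against 282.2 and 270.5 CPM in G3 Terc-/- libraries, did not pass (log2 -0.04, adjusted p = 0.54 by edgeR). Chromosome 15 as a whole had a median log2 fold change of -0.0325 over 586 genes.

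Near Porcn, 26 genes were tested within 500 kb, of which 9 rose and 4 fell by adjusted p-value, where 21.7% and 21.8% of all genes did. At the cutoff 1 of them was higher, where 4.73% of all genes were. Ebp, a sterol isomerase gene next to Porcn, rose from 323 and 373 counts to 625 and 567 counts (log2 0.90, SE 0.09, adjusted p = 7.03e-11 by edgeR). Ftsj1, an RNA methyltransferase gene on the other side, rose as well (log2 0.48, adjusted p = 2.32e-06 by edgeR), and Slc38a5, an amino acid transporter gene, rose from 26 and 29 counts to 73 and 91 counts (log2 1.71, SE 0.27, adjusted p = 9.98e-07 by edgeR). The median log2 fold change of the 26 genes was 0.0756, and that of the 529 tested genes of chromosome X was -0.0177. Porcn overlaps the lncRNA gene Gm33135 by 842 bp, which was not among the counted genes used here.

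**Figure D4:**
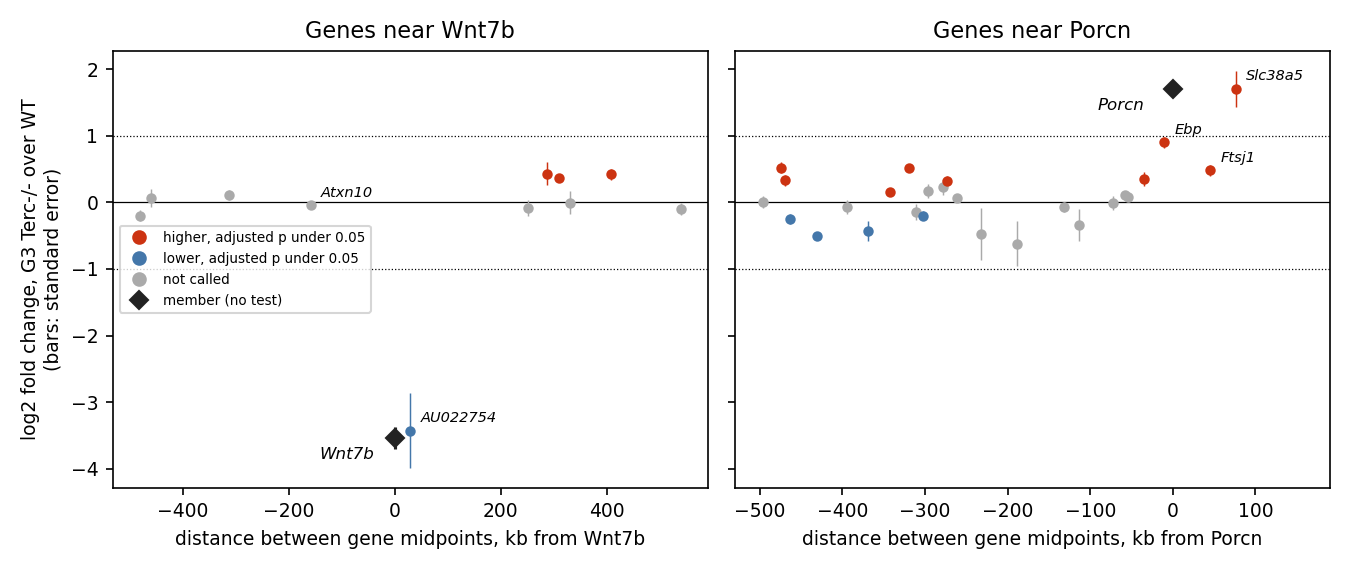
Log2 fold change of G3 Terc-/- over WT ESCs against the distance between gene midpoints in kb, for the tested genes within 500 kb of Wnt7b (left) and Porcn (right), with bars for the standard error and dotted lines at a fold change of 2. AU022754 lies beside Wnt7b at -3.43, and Ebp (0.90) and Slc38a5 (1.71) lie above 0 near Porcn.

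ESC cultures hold feeder cells and may hold cells of other identities, so marker genes were measured beside the Wnt genes. The sum of 18 feeder fibroblast markers was 364.5 and 240.0 CPM in WT against 423.5 and 289.1 CPM in G3 Terc-/- libraries, higher in replicate 1 of both genotypes, with overlapping ranges. Of the 16 tested, 7 were higher by adjusted p-value and none lower, among them Col5a1 (log2 0.58, adjusted p = 1.02e-05 by edgeR) and Col6a1 (log2 0.65, adjusted p = 0.000636 by edgeR), while the abundant Acta2 (log2 0.014, adjusted p = 0.938) and Col1a1 (log2 0.16, adjusted p = 0.304) did not pass. No feeder marker was at 0 in all libraries. Among the members, Porcn, Sp5, Cdx1 and T had the higher CPM in replicate 1 of both genotypes, as these markers did. So did Wnt5b, Wnt6, Wls, Fzd2, Fzd10, Ptk7, Tcf7l2, Tle5, Ctbp2, Jun and Tcl1 among the other pathway genes named here. In the members the gap could be slight. In G3 Terc-/- libraries Porcn had 145.6 against 145.4, T 7.17 against 7.13 and Sp5 3.92 against 3.84 CPM. In WT, Cdx1 had 9.3 against 9.02 CPM. The share of all genes with this order was not counted, so nothing is read from these names. The part of feeder RNA in the levels of the Wnt genes was not tested.

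The sum of trophectoderm markers was lower in G3 Terc-/- ESCs, as Wnt7b was, but not every marker was lower. The sum of 11 such markers was 372.3 and 367.6 CPM in WT against 213.3 and 210.6 CPM in G3 Terc-/- libraries. Of 9 tested, 6 fell and none rose by adjusted p-value, where 21.8% and 21.7% of all genes did. Their median log2 fold change was -1.06 and the highest was 0.7. The keratins of simple epithelia Krt8 (log2 -1.26, adjusted p = 6.37e-20 by edgeR) and Krt18 (log2 -1.81, adjusted p = 1.51e-23 by edgeR) fell, as did Krt7 (log2 -3.21, adjusted p = 3.84e-18 by edgeR), the gene already named for its nearness to Wnt7b, and Hand1 (log2 -1.94, adjusted p = 1.48e-07 by edgeR), named after its values were seen. Elf5, a defining trophoblast factor, had at most 5 counts in any library. In bulk RNA, fewer cells of a type and less RNA per cell cannot be told apart, and the part of such cells in the Wnt7b difference was not tested.

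Of 9 tested primitive streak and mesendoderm markers other than T, 4 rose and none fell by adjusted p-value, where 21.7% and 21.8% of all genes did, and the lowest of the others had a log2 fold change of -0.53. The markers summed to 76.0 and 81.3 CPM in WT and 135.2 and 140.0 CPM in G3 Terc-/- ESCs, most of it Nodal with 63.0 and 67.8 CPM against 100.7 and 106.4 CPM. Among those that rose were Eomes (log2 1.63, adjusted p = 5.27e-17 by edgeR) and Nodal itself (log2 0.66, adjusted p = 6.35e-12 by edgeR). The members T and Cdx1 were higher as well. Mesp1, a mesoderm factor, had at most 4 counts in any library. Primitive endoderm markers summed to 218.8 and 201.7 CPM in WT against 205.7 and 182.6 CPM in G3 Terc-/- libraries, and 5 of 10 fell, among them Dab2 (log2 -1.05, adjusted p = 5.71e-09 by edgeR, and -0.88 without G3 Terc-/- replicate 2), Col4a1 (log2 -0.35, adjusted p = 3.08e-05 by edgeR) and Gata6 (log2 -1.43, adjusted p = 3.49e-05 by edgeR), the last named after its values were seen, while Lama1 rose (log2 0.30, adjusted p = 8.33e-05 by edgeR). The 10 pluripotency markers split into 6 that rose, such as Tdgf1 (log2 0.66, adjusted p = 1.36e-15 by edgeR) and Pou5f1 (log2 0.38, adjusted p = 4.07e-09 by edgeR), and 4 that fell, such as Lin28a (log2 -0.42, adjusted p = 1.22e-09 by edgeR). Their sum was 4705.6 to 5981.5 CPM, with Pou5f1 at 932.3 CPM or more in every library, as the label of ESCs implies.

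**Figure D5:**
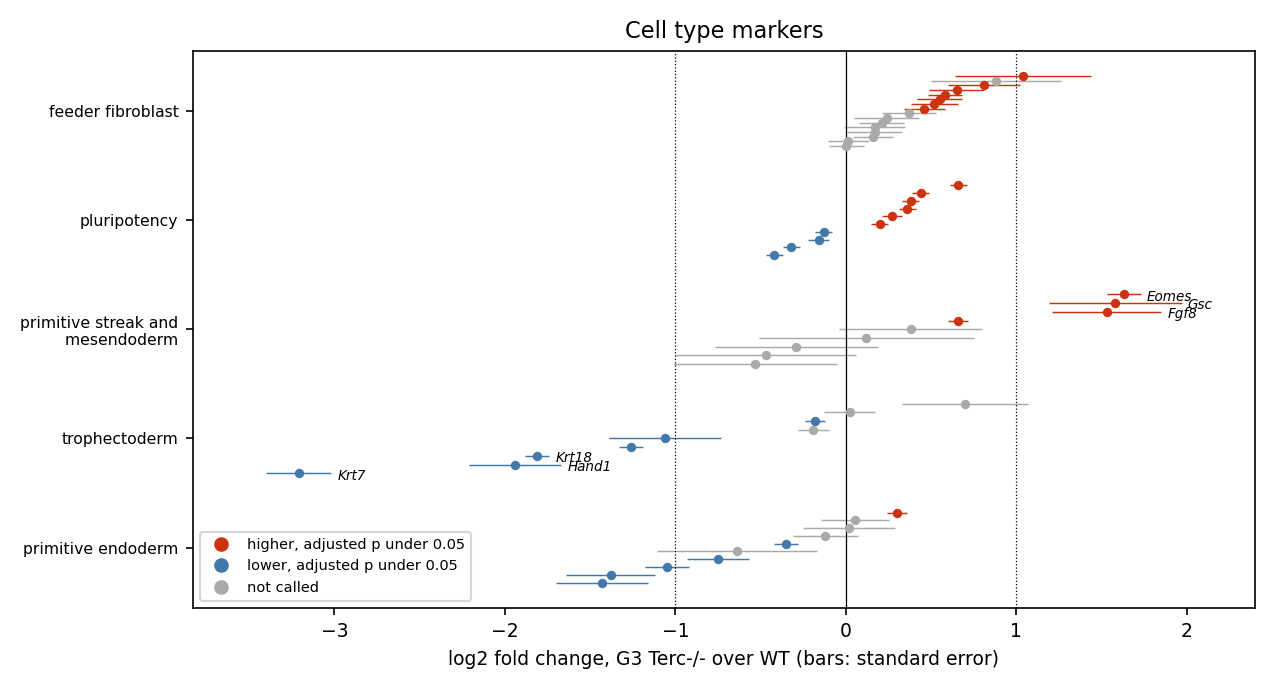
Log2 fold change of G3 Terc-/- over WT ESCs for the tested markers of 5 cell types, with bars for the standard error, dotted lines at a fold change of 2, and red or blue circles for adjusted p-values under 0.05. Trophectoderm markers lie mostly to the left with a median of -1.06, and primitive streak markers reach 1.63 at Eomes.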

How the data were processed

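Poly(A) libraries of 2 WT and 2 G3 Terc-/- ESC samples were sequenced as paired-end reads of 150 bp. The authors aligned them to mm10 with STAR at default parameters, the submitters' processing notes also name Trim Galore and featureCounts, and the deposited table holds raw counts per gene. The counting strand setting is not given in the sources used here. A deposited table of counts per transposable element copy was not used. NCBI gene identifiers were matched to RefSeq symbols and positions (GRCm38.p6, 24061 of 24116) and GENCODE exon lengths (21181).

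Counts were filtered with filterByExpr, scaled by TMM and fitted with genotype as the only term by the quasi-likelihood test of edgeR 4.0.16 in R 4.3.3, with Benjamini-Hochberg adjustment over 14896 genes. Figures were drawn with matplotlib 3.10.9. SE is the log2 fold change divided by the square root of F. The fit was tested on simulated counts with known changes. The spread between replicates exceeded sampling noise (chi-square per gene 2.48 in WT, 3.76 in G3 Terc-/-).

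The members and lists were chosen with earlier results of these data known. Named by rule were the members, Terc, per pathway list the genes past the cutoff (at most 6, by p) and the 2 highest per kb, per marker list the 2 highest and the 2 with the smallest p, the 3 nearest patterns of Wnt7b and Porcn, and their neighbours that were nearest or past the cutoff. Others are marked as named after their values were seen. Tcf7l2, Elf5 and Mesp1 were also named outside these rules, without such a mark, and Skp1 was named for its overlap with Tcf7. Alternatives were DESeq2 1.42.0, its size factors, no filter, a mean of at least 50 counts, the replicate block, each library left out, chromosome 6 left out of the lists and adjusted p-values.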

Additional observations from a re-analysis of the deposited data

How the results depend on the processing

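No member changed sign in 88 values under the alternatives. At the cutoff of the study 704 genes were higher and 466 lower, and 10 and 2 other pathway genes. DESeq2 gave 583 and 419 genes and 8 and 2 pathway genes, and DESeq2's size factors 701 and 468 genes. Without a filter, 4 pathway genes were lower. With a mean of at least 50 counts, which tests fewer genes (12177, of the pathway 100), 285 and 271 genes and 6 and 1 pathway genes were called. By adjusted p-value alone, 3238 and 3241 genes and 32 and 32 pathway genes were called. Leaving out chromosome 6 genes gave 8 and 2 of 119 pathway genes.

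The labels do not say whether replicates of the same number share a batch. Over all genes, replicate 1 of both genotypes deviated together only weakly (r = 0.0617), but the feeder marker sum was higher in replicate 1 of both. A correlation over all genes cannot show whether a smaller set of genes shares a batch. With the replicate number as a block, 700 and 461 genes and 10 and 2 pathway genes were called.

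Leaving out each library in turn assumes that the lone library varies like the others and gave 8 to 10 pathway genes higher and 3 to 5 lower. Of 655 alternative values of 74 genes (11 genes had none at a mean of 50 counts), 11 lost the cutoff, 4 gained it and 10 changed sign. The sign changes were all in Tmed2, Ptk7, Acta2 and Col1a1, which had log2 fold changes of -0.001, -0.03, 0.014 and 0.16 in the main fit. Tmed2 had 0.012 at a mean of 50 counts, and -0.094 to 0.089 (0.001 without WT replicate 1) with a library left out. Ptk7 had -0.14 to 0.069 (0.022 without WT replicate 1) and Acta2 -0.38 to 0.39 (-0.29 without WT replicate 2), and -0.0027 with DESeq2, and Col1a1 had -0.18 to 0.59 (-0.16 without G3 Terc-/- replicate 1). The direction of the feeder markers Acta2 and Col1a1 thus depended on which library was left out. Fzd10 lost the cutoff without WT replicate 2 (0.94), Draxin without WT replicate 1 (0.85), Dab2 without G3 Terc-/- replicate 2 (-0.88), Wnt6 with DESeq2 (1.05) and without G3 Terc-/- replicate 1 (1.00), and Wif1 with DESeq2 (1.24), without a filter (1.22) and without each of the 4 libraries. Tcf7l1 (-1.02), Cdx2 (-1.99) and Fzd2 (-1.21) passed it without G3 Terc-/- replicate 1, and Wnt3a (-1.18) without G3 Terc-/- replicate 2. The cause was not tested. Depth limits Wnt3 and Wnt4, with 21 to 61 counts a library.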

Other observations

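Genes near the other members were looked at after their values were seen. None passed the cutoff near Wnt3, Tcf7 and Axin2. Within 500 kb of T, 9 genes were tested and 3 passed the cutoff upward, with a median log2 fold change of 0.349, where 4.73% of all genes were called higher. They were Mpc1, a subunit of the mitochondrial pyruvate carrier (6.91 and 7.4 CPM in WT, 16.9 and 18.5 CPM in G3 Terc-/- libraries, log2 1.30), 4930506C21Rik (6.64 and 7.08 against 15.4 and 16.7 CPM, log2 1.22) and Prr18 (0.366 and 0.902 against 2.07 and 1.81 CPM, log2 1.61). Mpc1 and 4930506C21Rik overlap by 4302 bp on opposite strands, so that without the strand setting their reads cannot be told apart there. Near Sp5, 1 of 5 tested genes passed downward, where 3.13% of all genes did, Gad1, a glutamate decarboxylase gene (4.03 and 5.05 against 1.8 and 1.15 CPM, log2 -1.59). Near Wnt4, 1 of 8 passed downward, Epha8 (log2 -1.10), and near Lef1, 1 of 6 upward, Cyp2u1 (log2 1.5). Near Cdx1, 2 of 17 passed upward, Myoz3 (log2 1.08) and Mir5107 (log2 1.18), both under 3 CPM in every library. Mir5107 lies inside the span of Cd74, which rose as well (log2 0.78, adjusted p = 0.00184 by edgeR). Reads counted for Mir5107 may therefore come from Cd74. Pdgfrb, a tested neighbour of Cdx1 that is also a feeder marker, had 3.85 and 2.39 CPM in WT against 6.31 and 4.49 CPM in G3 Terc-/- libraries (log2 0.81).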
